A study of Homo sapiens with 8 samples.

Results

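The baseline small RNA population of HEK293 cells, a human embryonic kidney line, was described from 4 libraries of cells that had received a scramble control mimic. These are 4 of the 8 libraries of the study, and the other 4, from cells given a mimic of a tRNA-Asp-GTC 3′ fragment, were not analysed here. All rows of the deposited count table were used except scr and scr2, whose names match no gene, so 2962 of 2964 rows entered the description. Of these, 232 had no count in any of the 4 libraries, and rows of a class with identical counts in every library were taken once, which left 2522 distinct rows.

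Every library came from cells transfected with 50 nM of the scramble mimic using Lipofectamine RNAiMax, a lipid reagent, and harvested 48 h later. So the baseline is that of lipid-transfected cells that carry a synthetic RNA, and not of untouched cells. Total RNA was isolated with TRIzol and turned into libraries with OTTR-seq, whose reverse transcriptase adds both adapters as it copies an RNA. The labels number the 4 libraries but do not say whether they came from separate cultures, so the spread between them may be technical.

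Most of the RNA in a cell by mass is ribosomal RNA, the catalytic and structural core of the ribosome, and transfer RNA, which brings amino acids to it. Small nuclear RNAs (snRNAs) build the spliceosome, small nucleolar RNAs (snoRNAs) guide chemical modification of ribosomal RNA, and microRNAs guide Argonaute proteins to messenger RNAs. RNA polymerase III makes transfer RNAs, 5S rRNA, U6 snRNA, 7SL, 7SK, Y and vault RNAs, whereas polymerase I makes the large ribosomal RNAs and polymerase II most snRNAs and microRNA precursors.

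Library totals over distinct rows ran from 2622283 to 6673414 counts, library 3 being the shallowest, and levels are given as counts per 1000000 of these totals (CPM). Between 2328 and 2467 distinct rows had a count in a library, and 2210 had one in all 4. Scaled to the depth of library 3, the expected number was 2301 in library 1, 2338 in library 2 and 2368 in library 4, against 2328 in library 3 itself. A count of 0 allows up to 3 counts, which is 0.45 CPM in the deepest libraries and 1.14 CPM in library 3. Across the 2522 rows, log2(CPM + 1) values of any pair of libraries had a Pearson r of 0.982 to 0.989, a description over rows that share the same libraries. No pair agreed within sampling noise: the chi-square per degree of freedom ran from 14.2, between libraries 2 and 3, to 75.8, between libraries 1 and 2. These values take every count as a separate read, and are too high where rows share reads.

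Ribosomal RNA, transfer RNA and snRNA together made up most of the counts. Ribosomal RNA held 52.2%, 46.5%, 48.8% and 48.1% of the counts in libraries 1 to 4, a mean of 48.9 ± 2.38% (here and below, ± is the SD over the 4 libraries). Transfer RNA held 24.4%, 26.3%, 22.6% and 25.7%, a mean of 24.7 ± 1.64%. snRNA held 15.7%, 19.2%, 19.6% and 17.8%, a mean of 18.1 ± 1.75%. These 3 classes did not overlap in any library.

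That order depended on how rows that can share reads were treated. The table has many rows for copies of 1 gene, and their counts are close but not always identical, so a sum over them may count a read more than once, which was not tested. When only the largest row of each ribosomal, snRNA, Y RNA, 7SL, 7SK, snaR or U3-like gene family was kept, transfer RNA, whose rows were not reduced, led with 54.3%, before ribosomal RNA with 27.9% and snRNA with 5.62%. When rows of a family within 10% or 3 counts of each other were taken once, transfer RNA was again first, with 42.7%, before ribosomal RNA with 32.2%. With every row counted as deposited, ribosomal RNA was first with 56.5%, before snRNA with 21.5% and transfer RNA with 16.3%. In each of these treatments the leading 2 classes did not overlap between libraries. The count table does not say how reads that match several rows were assigned, so a sum over rows is not read as a share of molecules.

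The remaining classes were small under each treatment. Y RNAs, short transcripts that the protein Ro60 binds, held 2.20 ± 0.177% as summed rows and 0.615% with the 4 Y RNA genes alone. The 2 mitochondrial ribosomal RNAs held 1.93 ± 0.118% and the C/D box snoRNAs 1.85 ± 0.163%. MicroRNAs held 1.10 ± 0.313%, or 2.42% where each repeated family was represented by its largest row. Y RNA stood above mitochondrial rRNA within every library, although their ranges over libraries overlapped. Mitochondrial rRNA and C/D box snoRNA, and microRNA and 7SL RNA, changed places between libraries.

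Below 1% stood 7SL RNA, the scaffold of the signal recognition particle, with 0.615 ± 0.0801%, and H/ACA box snoRNAs with 0.290 ± 0.0328%. The transcription regulator 7SK held 0.148 ± 0.00864%. Primate-specific snaR RNAs, scaRNAs of the Cajal body, RMRP with RPPH1 (the RNA parts of RNase MRP and RNase P) and vault RNAs each held between 0.0262% and 0.0509% on average. Counting error, as the distance from a class share to the bounds of its exact 95% binomial interval, was at most 0.061 percentage points. For RMRP with RPPH1 it was 0.00123 to 0.00195 points, above their SD of 0.000753 points between libraries. Intervals and zero-count limits cover counting error only. The intervals take every count as a separate read, so they are too narrow where rows share reads. With 4 libraries in 1 group, an exact two-sided sign-flip test between 2 neighbours cannot give a p below 1 in 8, so orders are described by overlap and not by significance.

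**Figure D1:**
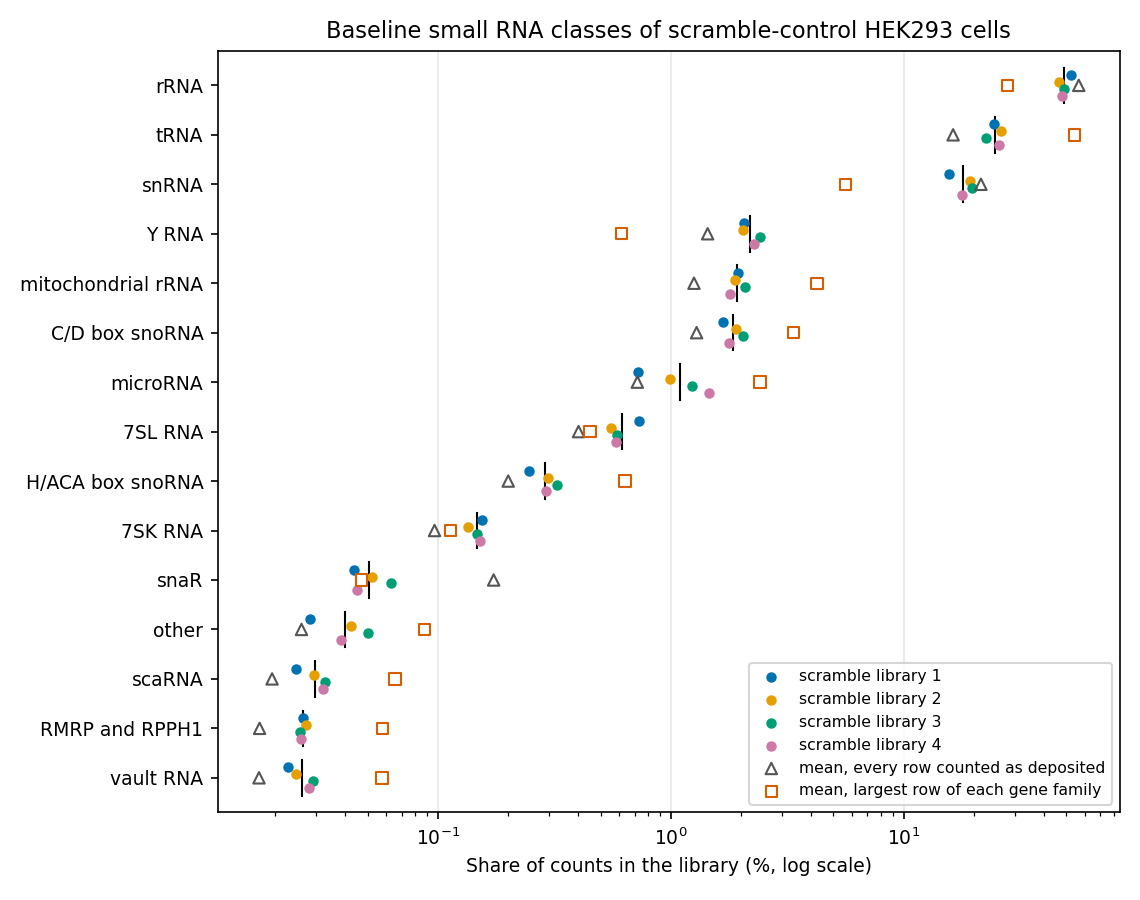
Share of the counts of each library (horizontal log axis, %) held by each RNA class (rows), with 1 coloured point per scramble library and a bar at the mean; open triangles and squares give the mean with every row counted and with only the largest row of each gene family. Transfer RNA moves from 16.3% to 54.3% and Y RNA from 2.20% to 0.615% with the treatment of repeated rows, more than the points of any class spread between libraries.

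Products of RNA polymerase III, as a group, held 44.3% to 49.1% of the counts as summed rows, with a mean of 46.5 ± 2.05%. With 1 row per repeated family they held 60.8 ± 2.05%. The group was counted as transfer RNA, 5S rRNA, U6 and U6atac, 7SL, 7SK, Y, vault and snaR RNAs, RMRP and RPPH1.

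A few rows carried each library. Over the mean of the 4 libraries, 12 of the 2522 distinct rows held 50% of the counts and 146 held 90%. By library, 11 to 13 rows were enough for 50%. At the other end, 560 rows had a mean under 1 CPM, while 101 reached 1000 CPM. With every row counted as deposited, 24 rows were needed for 50%.

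The classes differed in how even they were. In transfer RNA 6 rows held 50% of the class, in microRNA 5 and in ribosomal RNA 5. By contrast 21 C/D box snoRNAs, 22 H/ACA box snoRNAs and 30 Y RNA rows were needed to reach 50% of their class. No snoRNA reached 1000 CPM, although 149 C/D box rows were at 10 CPM or more, with 72 of 140 H/ACA box rows and 102 of 334 microRNAs.

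Among ribosomal RNAs, the 18S and 28S rRNAs, of the small and large cytoplasmic subunits, gave the largest counts. RNA18SN2 had 58479, 52251, 56298 and 52429 CPM in libraries 1 to 4 (54864 ± 3049), and RNA18SN4 differed from it by a single count in library 2. RNA28SN4 had 50025, 42527, 44628 and 44194 CPM (45343 ± 3250). Library 1 was the highest for both. With 1 row per family, 18S held 43.2 ± 0.687% and 28S 35.6 ± 0.722% of the ribosomal counts, while 5S held 12.9 ± 0.13% and 5.8S 8.34 ± 0.557%. The largest 5S row, used here, was the copy RNA5SP202 and not RNA5S1.

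Per length the order turned around, with the short ribosomal RNAs on top. Levels per length are CPM per 100 nt of the annotated gene, a scale on which a short RNA read from end to end and a fragment of a long RNA count alike, since read lengths are not in the table. On that scale RNA5S1, a 5S rRNA gene of the large subunit, reached 11285 CPM per 100 nt. RNA5-8SN1, the 5.8S rRNA that pairs with 28S, reached 6738 CPM per 100 nt, RNA18SN2 2935 and RNA28SN4 893. The RNA5S1 level per length was 12.7 ± 1.12 times that of RNA28SN4 and 1.68 ± 0.142 times that of RNA5-8SN1, although the 3 RNAs sit in the same subunit in equal number. RNA18SN2 stood 3.29 ± 0.113 times above RNA28SN4 per length, with 3.18 to 3.43 in single libraries.

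RNA5S1 was also the steadiest ribosomal row: it had 13566, 14301, 13271 and 13481 CPM in libraries 1 to 4, a coefficient of variation (CV, the SD over the mean) of 3.28%. Its counts were shared, identically, by 16 rows of the 5S array. In the mitochondria, the large-subunit MT-RNR2 had 14602, 14261, 15609 and 13152 CPM and the small-subunit MT-RNR1 4938, 4635, 5151 and 4788 CPM. Per length MT-RNR2 was 1.81 ± 0.0893 times MT-RNR1, whereas in the cytoplasm the small subunit's RNA18SN2 was above RNA28SN4. RNA18SN2 exceeded MT-RNR1 by 5.74 ± 0.217 times per length.

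Transfer RNA rows come in 3 kinds, told apart by their names. A whole tRNA row, such as tRNA-Asp-GTC-2, carries the amino acid, the anticodon and the number of an isodecoder, that is, of a distinct tRNA sequence with that anticodon. A locus row adds a further number for 1 gene copy, and an antisense row is marked as such. Whole tRNA rows held 99.73 ± 0.049% of the tRNA counts and locus rows 0.274 ± 0.0491%. Of 231 antisense rows 8 had a count, and after identical rows were taken once they gave 11 counts in all.

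Acidic and lysine tRNAs dominated. tRNA-Asp-GTC-2 had 32685, 50101, 41820 and 48043 CPM in libraries 1 to 4 (43162 ± 7821), and tRNA-Glu-CTC-1 had 36376, 40567, 32943 and 33439 CPM (35831 ± 3502). Both are 72 nt long, and their order was not resolved: the glutamate row was the higher in library 1 and the aspartate row in libraries 2 to 4, with a ratio of 1.21 ± 0.226. tRNA-Lys-CTT-2 had 22115, 16166, 13785 and 15633 CPM (16925 ± 3607), below both in every library and highest in library 1.

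The initiator tRNA-iMet-CAT-1, which starts every protein, followed with 14480, 11248, 9618 and 12025 CPM (11843 ± 2024). tRNA-Gly-GCC-1 had 9138, 10525, 9438 and 12165 CPM (10316 ± 1369) and tRNA-Lys-CTT-1 9564, 7617, 6508 and 7686 CPM (7844 ± 1268). Neighbours in this order overlapped between libraries from tRNA-Lys-CTT-2 down to tRNA-Lys-CTT-1, which lay above the next row, tRNA-Ser-GCT-3, in every library. That row, tRNA-Gly-TCC-2, tRNA-Glu-TTC-2 and tRNA-Glu-TTC-1 completed the leading 10, with means of 5405, 5326, 4666 and 4147 CPM.

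Summed by isotype, the amino acid a tRNA carries, glutamate held 19.3 ± 1.25% of the whole tRNA counts and aspartate 18.6 ± 2.98%. Lysine held 11.4 ± 2.08%, glycine 10.2 ± 0.613% and serine 6.47 ± 0.35%. Aspartate was 14.1% in library 1 and 19.8% to 20.4% in the others, while lysine was 14.5% in library 1 and 10.2% to 10.4% in the others, so library 1 stood apart for both in opposite directions. Arginine, with 4.39% to 4.52%, was the steadiest isotype, with a CV of 1.30%.

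At the low end stood the aromatic amino acids. Phenylalanine tRNAs held 0.276 ± 0.0448%, tryptophan tRNAs 0.0345 ± 0.00686% and tyrosine tRNAs 0.0156 ± 0.0015% of the whole tRNA counts. Selenocysteine tRNA, read at a recoded stop codon, held 0.187 ± 0.0197%, above both tryptophan and tyrosine in every library. Alanine, with 26 whole rows the isotype with the most, held only 0.827 ± 0.102%. The initiator methionine tRNAs outnumbered the elongator methionine tRNAs, which insert methionine inside proteins, by 5.85 ± 0.267 times in counts, with 5.62 to 6.23 in single libraries.

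**Figure D2:**
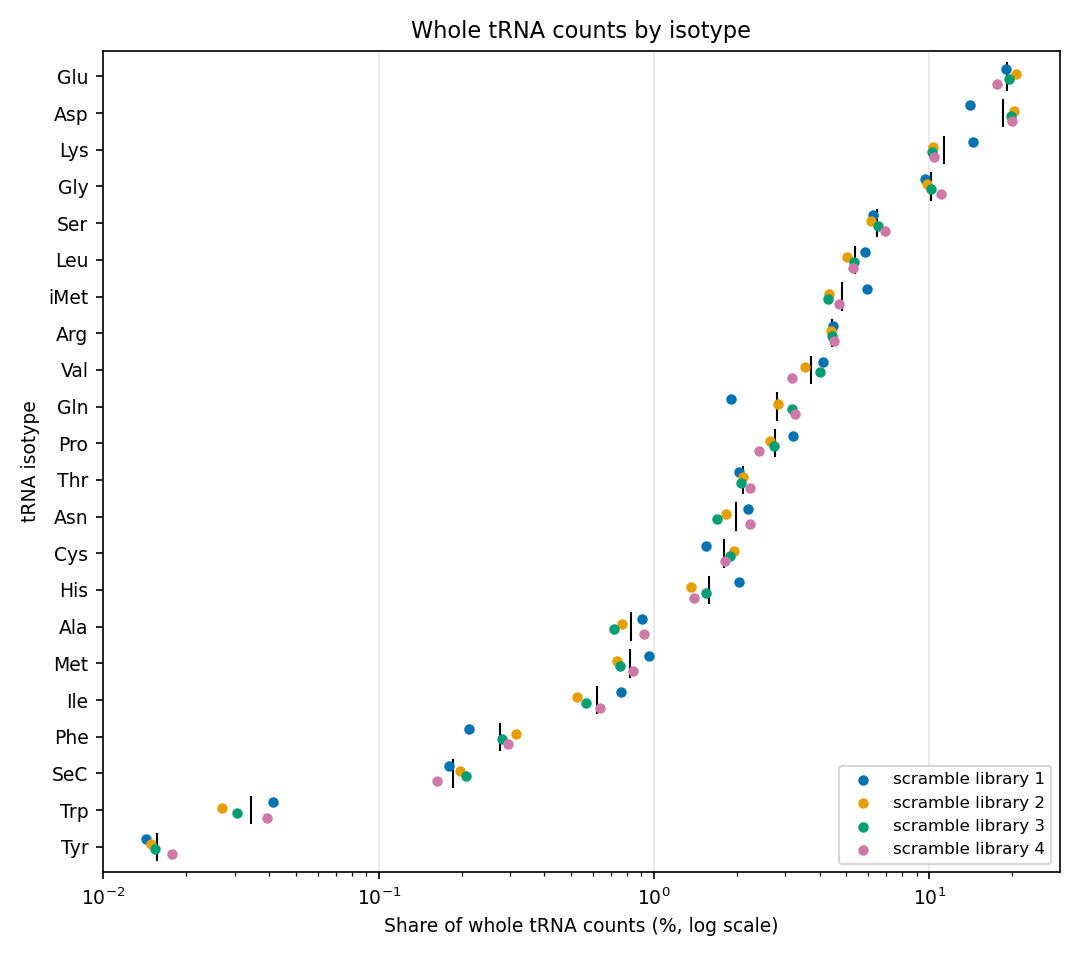
Share of whole tRNA counts (horizontal log axis, %) by tRNA isotype, with 1 coloured point per scramble library and a bar at the mean. Isotypes run from glutamate, 17.7% to 20.7%, to tyrosine, 0.0143% to 0.0177%, and library 1 lies apart from the other 3 for isotypes such as aspartate, lysine and glutamine.

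Within an isotype 1 isodecoder often held most of the counts. tRNA-Asp-GTC-2 held 94.2 ± 0.543% of the aspartate counts and tRNA-iMet-CAT-1 99.5% of the initiator counts in each library. tRNA-Phe-GAA-1 held 85.4 ± 0.445%, tRNA-Glu-CTC-1 75.5 ± 2.02% and tRNA-Lys-CTT-2 60.3 ± 1.69% of theirs. Leucine, by contrast, was spread over 18 rows, with tRNA-Leu-TAA-1 at 22.1 ± 1.06%, and arginine over 18, with tRNA-Arg-TCT-1 at 25.8 ± 2.78%. Of isoacceptors that carry the same amino acid, CTC held 75.5 ± 2.02% of glutamate, CTT 93.9 ± 1.00% of lysine, AGC 79.7 ± 1.90% of alanine and AAT 91.9 ± 1.01% of isoleucine. The split of proline was the steadiest of the isotypes with several anticodons, with AGG at 38.5% to 38.8%.

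Rows with more numbered loci in the row names were the more abundant. This number is not the gene copy number, because 82 isodecoder rows had no numbered locus. All 262 locus rows had a count, and whether loci without reads were left out was not tested. Over 22 isotypes the number of loci had a Spearman rho of 0.653 with the mean level, over 48 anticodons 0.48 and over 229 isodecoder rows 0.532. These points share libraries and, between similar tRNAs, possibly reads, so the values are a description. The 10 isodecoders with 5 or more loci had a median of 7821 CPM, the 36 with 2 to 4 loci 693 CPM, the 101 with 1 locus 189 CPM and the 82 without a numbered locus 35.9 CPM.

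Locus rows were low, with 1 exception. tRNA-Lys-TTT-6-1, a single gene at chr6:27334990-27335062 in RefSeq for GRCh38.p14, had 121, 239, 244 and 155 CPM in libraries 1 to 4 (189.7 ± 61.0), while its whole row, tRNA-Lys-TTT-6, had 40, 46, 15 and 68 counts. It alone held 28.1% of all locus counts. tRNA-Asp-GTC-2-9 was the next locus row, with 34.9, 41.4, 65.2 and 54.4 CPM.

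Tyrosine differed from the other isotypes in the ratio of its locus rows to its whole rows. Every human tRNA-Tyr gene carries an intron that must be spliced out. The tyrosine locus rows reached 14.7 CPM against 38.5 CPM for the whole tyrosine rows, or 39.3 ± 11.5% of them. That locus level was near those of asparagine, at 15.5 CPM, and initiator methionine, at 14.4 CPM. The whole tyrosine rows, in contrast, were the lowest of all isotypes. In tryptophan the ratio was 2.46 ± 0.826% and in lysine 0.892 ± 0.358%, and in the remaining 19 isotypes it was at most 0.691%. Whether locus rows hold precursors was not tested, because the sources used here do not say which reads were given to them.

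The spliceosomal snRNAs were far from equal in level. U1, U2, U4, U5 and U6 join in 1 copy each in the assembling major spliceosome: U1 recognises the 5′ splice site, U2 the branch point, and U4 enters paired with U6 and joined to U5. RNU2-1 had 15272, 15906, 16362 and 17027 CPM in libraries 1 to 4, or 8586 CPM per 100 nt. In every library the row U2.2 lay above it and U2.20 below it, with ranges that overlapped its own. RNU6-1 had 6268, 7960, 7967 and 6466 CPM, or 6697 CPM per 100 nt, and libraries 1 and 4 were the low ones. RNU1-1 had 1137, 1178, 1305 and 1420 CPM, or 768 CPM per 100 nt. The variant U1 gene RNVU1-18 lay beside it with 728 CPM per 100 nt.

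U4 and most U5 rows were lower still. RNU4-2 reached 36.4 CPM per 100 nt and RNU4-1 24.2. The U5 variant RNU5D-1 reached 586 CPM per 100 nt, 6.89 ± 1.41 times RNU5B-1 at 84.5, and RNU5A-1 52.9, RNU5E-1 46.2 and RNU5F-1 39.2. Per length RNU2-1 was 11.2 ± 0.638 times RNU1-1, and RNU6-1 was 184 ± 14.1 times its pairing partner RNU4-2. These ratios varied little between libraries, from 10.5 to 11.8 and from 170 to 202. The U6 ratio holds for the row RNU6-1 only. RNU6-2, identical to it in sequence, reached 688 CPM per 100 nt and RNU6-9 1103, beside RNU1-1 at 768.

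The minor spliceosome, which removes a rare type of intron, had more even levels. RNU11 stood at 51.2, RNU12 at 50.5, RNU6ATAC at 48.6 and RNU4ATAC at 42.2 CPM per 100 nt. RNU1-1 exceeded its minor counterpart RNU11 by 15 ± 0.241 times per length and RNU2-1 exceeded RNU12 by 171 ± 7.41 times. RNU4ATAC, in contrast, was near the major U4, with a ratio to RNU4-2 of 1.15 ± 0.329. That ratio was 0.672 in library 1 and 1.23 to 1.43 in the others. RNU4ATAC had 30.1, 58.6, 74.4 and 56.2 CPM in libraries 1 to 4, so library 1 was the low one. RNU7-1, which guides 3′ end formation of histone messenger RNAs, showed the same gap, with 45.5 CPM in library 1 and 87.1 CPM or more in the others.

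**Figure D3:**
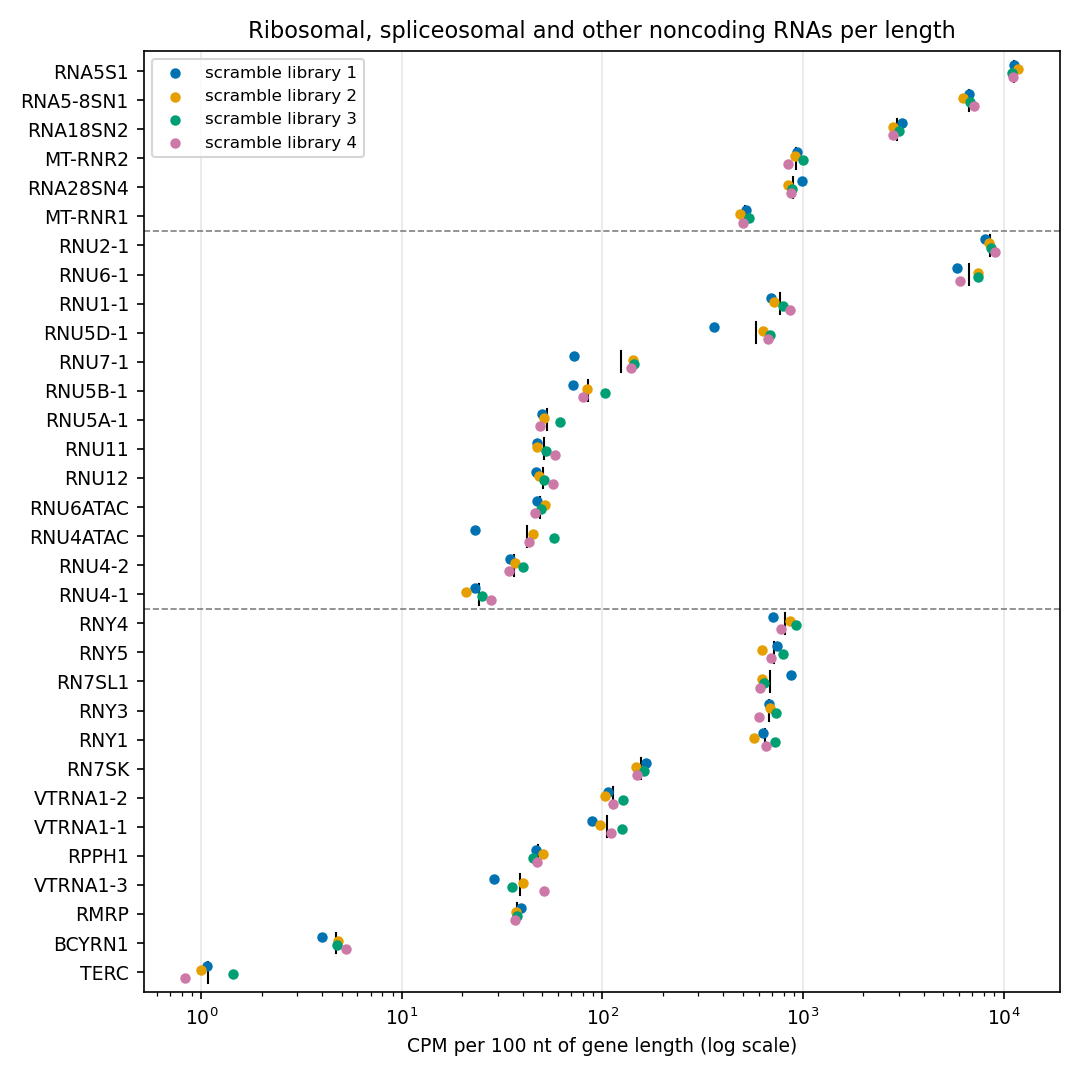
Level per length (horizontal log axis, CPM per 100 nt of gene length) of ribosomal RNAs (top block), snRNAs (middle block) and other polymerase III or telomerase RNAs (bottom block), with 1 coloured point per scramble library and a bar at the mean. RNU2-1 and RNU6-1 stand about an order of magnitude above RNU1-1. The U6 genes RNU6-2, RNU6-7, RNU6-8 and RNU6-9, at 650 to 1103 CPM per 100 nt, are not drawn. The minor spliceosomal RNAs lie together with RNU4-1 and RNU4-2 at 24.2 to 51.2.

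Summed over all their rows the snRNA families ranked differently, and U6 is known for its many copies in the genome. U6 rows then held 60.4 ± 3.18% of the snRNA counts, over 236 distinct rows, and U2 rows 30.2 ± 2.40%. With 1 row per family U2 held 63.2 ± 2.52% and U6 28 ± 2.62%. U1 held 8.36 ± 0.882% and 4.93 ± 0.391% under the 2 ways of counting.

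Copies of U6, U1, U2 and 5S whose sequence differed more from the named gene tended to have lower counts. Sequences of GENCODE release 29 were compared by edit distance, the number of changed, added or missing bases. Of 273 U6 copies, the 6 with a sequence identical to RNU6-1 had 10.3% to 99.8% of its counts. The 19 copies that differed by 1 to 3 bases had a median of 9.69%, the 76 that differed by 4 to 10 bases 0.129% and the 125 that differed by 11 to 20 bases 0.0184%. The 47 copies beyond 20 bases had a median of 0.0312%, above the bin before. Spearman's rho between edit distance and counts was -0.508 over U6 copies, -0.649 over 78 U1 copies, -0.62 over 46 U2 copies and -0.45 over 164 5S copies. It was -0.487 over 121 copies of 7SK but -0.131 over copies of 7SL, and in the small sets of Y RNA copies it was -0.143 for Y1, -0.023 for Y3 and -0.224 for Y4. The rows U2.2 and U2.20, whose ranges over libraries overlapped that of RNU2-1, were not among the 46 U2 copies. The points share reads and libraries, so the rho values are descriptions.

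Identical sequences did not always have identical counts. RNU6-6P and RNU6-5P, with no base changed, had 99.8% of the counts of RNU6-1, but RNU6-2, also with none changed, had 10.3 ± 0.611% and RNU6-9 16.4 ± 0.641%. The 6 U1 rows identical to RNU1-1 had at least 73.5%. All 15 identical 5S copies had the same counts as RNA5S1, and RNA5SP202, which differs by 1 base, had 119.9 ± 9.94%. A row of this kind cannot be read as the output of its own gene.

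**Figure D4:**
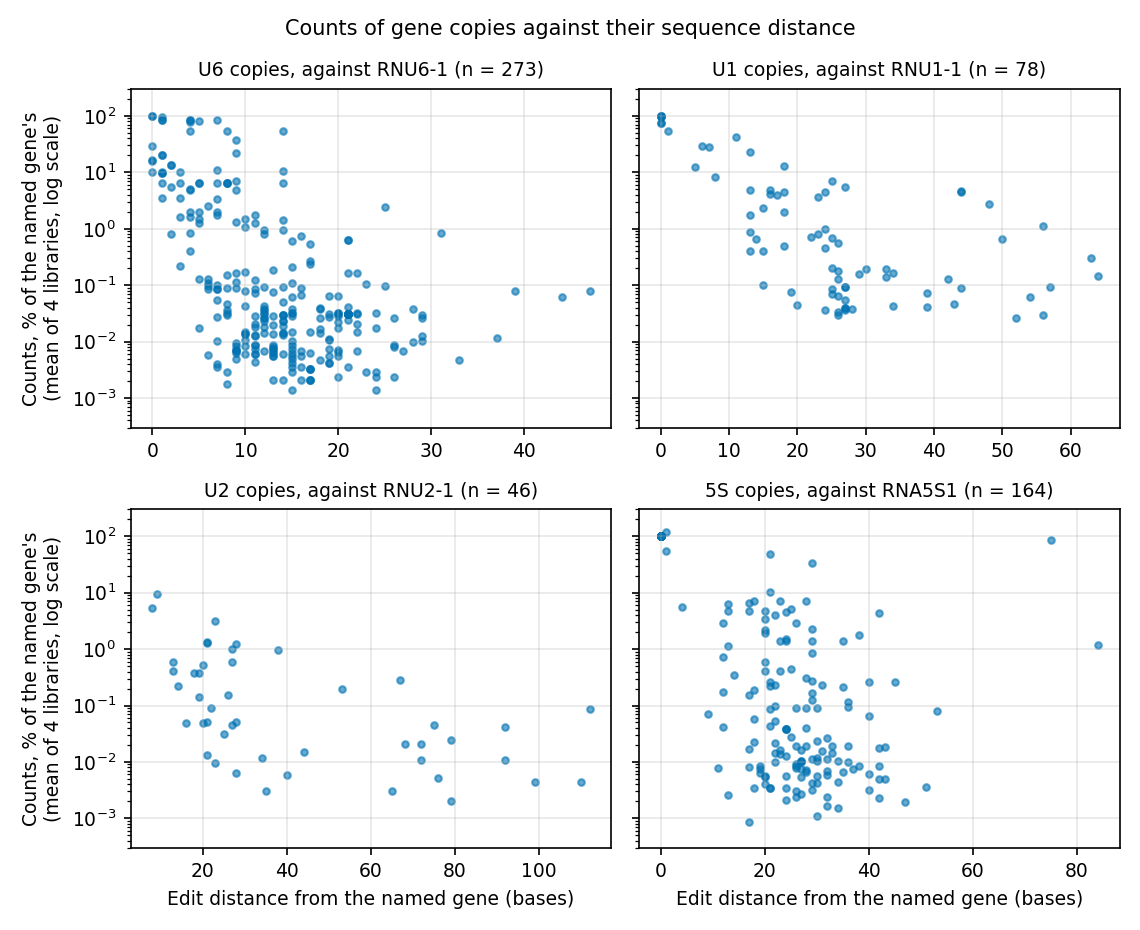
Counts of gene copies as a percentage of the counts of the named gene (vertical log axis, mean of 4 libraries) against their edit distance from it in bases (horizontal axis), with 1 point per copy, for U6, U1, U2 and 5S. The nearest copies reach the level of the named gene in U6, U1 and 5S, with others of U6 as near at 10.3%. In U2 none of the 46 copies compared passes 9.48%, but the higher rows U2.2 and U2.20 are not among them. Most distant copies of each family lie under 1%.

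C/D box snoRNAs direct 2′-O-methylation and H/ACA box snoRNAs pseudouridylation. C/D box counts exceeded H/ACA box counts by 6.41 ± 0.273 times, with 6.15 to 6.78 in single libraries. U3 and U8, which act in the cleavage of pre-rRNA rather than in methylation, were among the leading C/D rows. U3, SNORD3A, had 899, 680, 727 and 686 CPM in libraries 1 to 4 (748 ± 102.9), with library 1 the highest, and SNORD3B-1, SNORD3B-2 and SNORD3C had nearly the same counts. U8, SNORD118, had 562, 684, 705 and 712 CPM (666 ± 70.2), with library 1 the lowest.

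SNORD44, a methylation guide, lay beside U3 in counts and above it per length. It had 611, 777, 797 and 735 CPM (730 ± 83.5), which overlapped SNORD3A, but 1196 CPM per 100 nt against 345 for SNORD3A. U13, SNORD13, reached 86.7 CPM per 100 nt, and the 5 U14 rows ranged from 18.8 for SNORD14D to 218.9 for SNORD14C. The imprinted groups SNORD113, SNORD114, SNORD115 and SNORD116 were not analysed here.

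A pair of conserved boxes defines the C/D class, and the sequences show them. The leading rows that have both boxes by the search below are given from GENCODE release 29, with the C box core TGATGA and the D box CTGA in capitals, because these letters separate this class from the H/ACA class in the table.
SNORD27: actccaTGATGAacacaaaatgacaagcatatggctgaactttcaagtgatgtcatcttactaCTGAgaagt
SNORD58C: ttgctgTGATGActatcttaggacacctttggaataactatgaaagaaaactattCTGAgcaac
SNORD83A: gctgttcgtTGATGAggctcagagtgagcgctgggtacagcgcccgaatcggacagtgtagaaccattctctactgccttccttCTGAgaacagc

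SNORD27, SNORD58C and SNORD83A had 392, 311 and 281 CPM on average. On the sense strand, CTGA was found in the last 15 bases of 121 C/D box rows, 93.8% of those with a sequence, and of 2 of 110 H/ACA box rows (1.82%). TGATGA in the first 15 bases was found in 69 C/D rows (53.5%) and in 1 H/ACA row (0.909%). ACA placed 3 bases before the end, the mark of the other class, was found in 87 H/ACA rows (79.1%) and 3 C/D rows (2.33%). The row names of the 2 classes thus matched their sequence boxes in most rows, and rows without a match lack only these letters in these windows.

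Mammalian snoRNAs are known to lie mostly inside other genes. Of 177 C/D rows placed by RefSeq coordinates, 169 lay within a GENCODE gene of another type, and of the H/ACA rows placed 120 did and 6 did not. The non-coding host GAS5 contained 10 C/D rows between 173864146 and 173867745 on chromosome 1, which held 15 ± 1.19% of all C/D counts. SNHG1, another non-coding host, on chromosome 11, contained 8 rows with 7.36 ± 0.576%, and the ribosomal protein gene RPL17 3 rows with 3.99 ± 0.591%.

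Rows of 1 host gene, which are cut from 1 transcript, differed in level. In GAS5 they ran from 1196 CPM per 100 nt for SNORD44 to 110 for SNORD78, a ratio of 11 ± 0.866 that was never below 9.9 in a library. In SNHG1, SNORD29 stood 41.9 ± 4.73 times above SNORD30 per length, with 827 against 19.6 CPM per 100 nt. Which of the snoRNA counts came from host transcripts was not tested.

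Among H/ACA box snoRNAs, SNORA33 led with 119, 139, 136 and 123 CPM in libraries 1 to 4 (129.3 ± 9.66). SNORA75 followed with 108, 109, 113 and 110 CPM (110 ± 2.17), below SNORA33 in every library and the steadiest of its class, with a CV of 1.97%. SNORA8 had 109 ± 13.5 CPM, SNORA4 90.1 ± 7.61 CPM and SNORA40 89.95 ± 30.03 CPM, and their order was not resolved. SNORA73A and SNORA73B, which act in pre-rRNA processing, had 83.9 ± 10.8 and 29.2 ± 1.86 CPM. The largest scaRNA row, SCARNA16, had 50.2 ± 5.61 CPM.

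MicroRNAs formed a narrow population with 1 polycistron on top. Sequences of the 10 leading microRNAs are given from RefSeq (GRCh38.p14), with the seed, bases 2 to 8, in capitals, because 3 seeds recur among them.
hsa-miR-19b-3p: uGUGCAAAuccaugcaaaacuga
hsa-miR-19a-3p: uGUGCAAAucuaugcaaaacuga
hsa-miR-92a-3p: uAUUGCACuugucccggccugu
hsa-miR-25-3p: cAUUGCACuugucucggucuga
hsa-miR-17-5p: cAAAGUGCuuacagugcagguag
hsa-miR-20a-5p: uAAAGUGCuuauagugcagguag
hsa-miR-18a-5p: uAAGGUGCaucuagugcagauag
hsa-miR-15b-5p: uAGCAGCAcaucaugguuuaca
hsa-miR-26a-5p: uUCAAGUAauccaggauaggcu
hsa-miR-103a-3p: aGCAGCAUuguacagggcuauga

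hsa-miR-19b-3p, a member of the growth-promoting miR-17-92 cluster, had 1444, 2357, 3009 and 3862 CPM in libraries 1 to 4 (2668 ± 1023), or 23.7% of the microRNA counts. hsa-miR-92a-3p had 980, 1092, 1330 and 1655 CPM (1264 ± 299), and hsa-miR-19a-3p had 515, 861, 1062 and 1265 CPM (926 ± 320). Each of the 3 was lowest in library 1 and highest in library 4. Within every library miR-19b-3p was above miR-92a-3p and miR-92a-3p above miR-19a-3p, although their ranges overlapped.

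The 10 leading microRNAs held 62.9 ± 1.72% of the class, with 60.8% in library 1 and 65.0% in library 4. After the leading 3 came hsa-miR-15b-5p with 382 ± 86.8 CPM, hsa-miR-18a-5p with 378 ± 98.8 CPM and hsa-miR-17-5p with 338 ± 89.6 CPM. hsa-miR-26a-5p had 282 ± 68.8 CPM, hsa-miR-103a-3p 256 ± 54.1 CPM, hsa-miR-20a-5p 244 ± 80.1 CPM and hsa-miR-25-3p 226 ± 50.3 CPM. These 7 overlapped with their neighbours, so the only neighbours among the 10 without overlap were miR-19a-3p and miR-15b-5p.

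**Figure D5:**
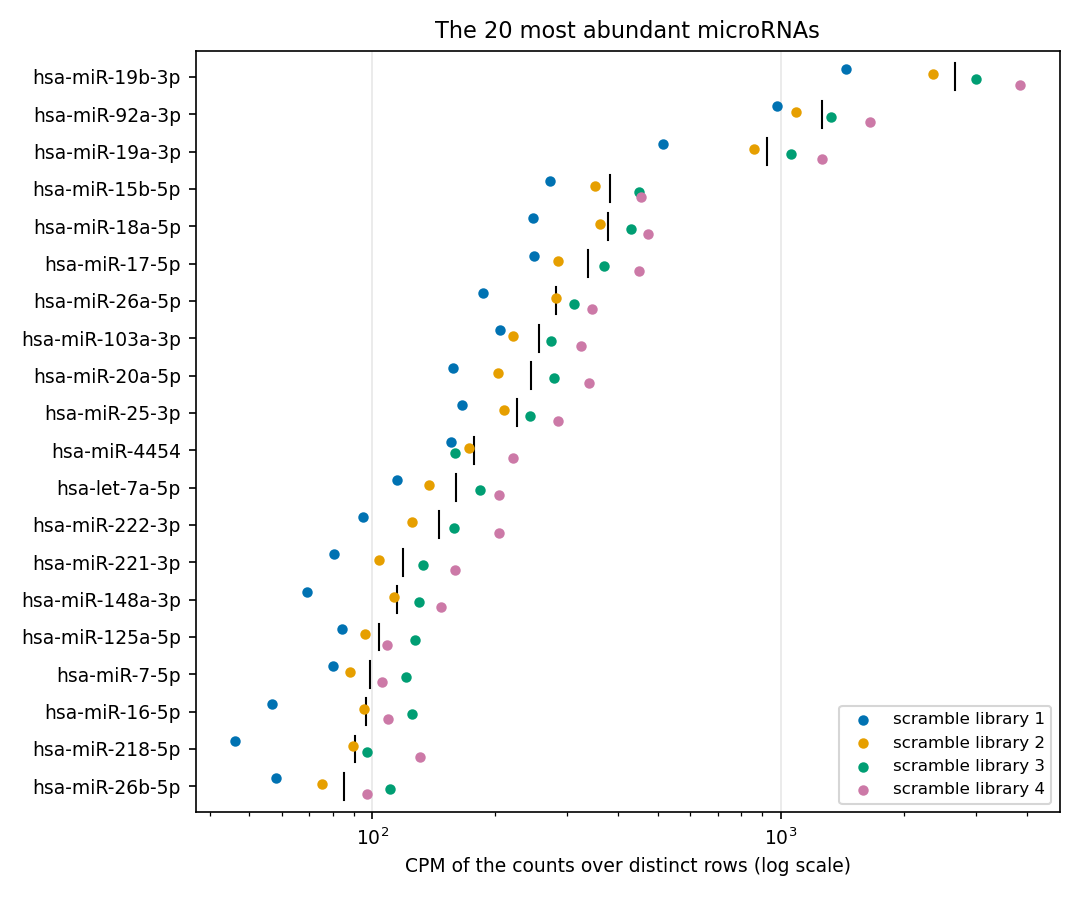
CPM (horizontal log axis) of the 20 most abundant microRNAs, with 1 coloured point per scramble library and a bar at the mean. In most rows library 1 is the lowest and library 4 the highest, and hsa-miR-19b-3p spans 1444 to 3862 CPM.

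Grouped by seed, which sets the sites a microRNA can pair with, the class was narrower still. GUGCAAA, of miR-19b-3p and miR-19a-3p, held 31.9 ± 3.55% of the microRNA counts. AUUGCAC, shared by miR-92a-3p, miR-25-3p, miR-92b-3p and miR-32-5p, held 13.9 ± 1.35%. AAAGUGC, shared by 6 microRNAs led by miR-17-5p and miR-20a-5p, held 6.03 ± 0.346%, and AGCAGCA, of the miR-15 and miR-16 family, 5.45 ± 0.369%. The let-7 seed GAGGUAG, of microRNAs abundant in differentiated tissue, held 2.72 ± 0.221% over 9 members.

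The miR-17-92 cluster, which lies at chr13:91350618-91351382 between the mature ends of miR-17-5p and miR-92a-3p, held 53.1 ± 2.43% of the microRNA counts over 12 mature rows. Its members are processed from 1 primary transcript, yet miR-19b-3p had 10.7 ± 1.12 times the counts of miR-20a-5p and 7.72 ± 1.29 times those of miR-17-5p, all of the same 23 nt. The latter ratio was 8.16 to 8.61 in libraries 2 to 4 and lower in library 1. miR-19b-3p and miR-92a-3p can also come from the paralogous miR-106a-363 cluster on the X chromosome. The rows that belong to that cluster alone held 0.170 ± 0.0175%, led by miR-106a-5p with 10.4 ± 2.79 CPM.

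Other families were minor. The miR-106b-25 cluster held 2.88 ± 0.227% of the microRNA counts, miR-15 and miR-16 5.69 ± 0.389%, miR-103 and miR-107 2.61 ± 0.307%, and miR-221 and miR-222 2.47 ± 0.0615%. Let-7 and miR-98 with both arms held 2.78 ± 0.228%. The HOX-cluster microRNAs miR-10 and miR-196 held 1.88 ± 0.143%, miR-23, miR-27 and miR-24 1.23 ± 0.126% and miR-30 1.14 ± 0.0449%. hsa-miR-210-3p, a microRNA induced by low oxygen, had 8, 7, 7 and 19 counts in libraries 1 to 4, or 2.01 ± 0.882 CPM.

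Members of a family could differ in level within every library. miR-15b-5p had 4.06 ± 0.557 times the counts of miR-16-5p, its cluster partner, which was at 96.6 ± 29.2 CPM. miR-24-3p had 2.23 ± 0.199 times those of miR-23a-3p, at 34.1 ± 9.96 CPM. miR-27a-3p, encoded beside miR-23a, was at 0.00, 0.599, 2.67 and 0.749 CPM, which lies near the limit of 3 counts in each library.

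The arms of a hairpin often differed in use. Of 33 hairpins with at least 100 counts over both arms, 14 had over 90% of them on the 5p arm, 6 over 90% on the 3p arm and 13 lay between. The leading microRNAs miR-19b, miR-92a, miR-26a, miR-103a and miR-25 were not among these hairpins, so the split does not cover them. For the highest of these, the 5p rows hsa-miR-19b-1-5p and hsa-miR-92a-1-5p had 12.2 and 2.27 CPM. The median SD of the 5p share was 1.32 percentage points, and 1 hairpin changed its leading arm between libraries. That hairpin was miR-140, named after its values were seen, with 41.3% to 50.3% on the 5p arm. With hairpins of at least 20 counts included, 44 of 76 lay between, the median SD was 4.68 points and 8 changed their leading arm. miR-19a had 0.293 ± 0.155% of its counts on the 5p arm and miR-17, from the same transcript, 96.0 ± 0.904%.

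The row after the leading 10, hsa-miR-4454, had 177 CPM on average. Its sequence ends in CCA, the triplet that is added to the 3′ end of every tRNA, shown here in capitals.
hsa-miR-4454: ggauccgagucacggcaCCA

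Of the microRNA rows with a RefSeq sequence 6 ended in CCA, read on the RNA strand. Among them were also hsa-miR-1306-5p and hsa-miR-223-3p, with 13.3 and 0.607 CPM on average. The number of rows ending in CCA was not compared with that for other triplets, so it does not set CCA apart. Whether reads of hsa-miR-4454 came from tRNA was not tested.

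Lists of microRNAs were used to look at the label and at other cell types, and the list for HEK293 was drawn up with these results known, so its share is a description. The 14 microRNA names listed for HEK293 were the miR-17-92 members with miR-10, miR-196, miR-103a, miR-16, miR-25 and miR-93. All had a row, and they held 60.8 ± 1.90% of the microRNA counts. The miR-17-92 cluster alone held 53.1 ± 2.43%, so this share rests mostly on 1 cluster. Liver miR-122 and the 8 pluripotency microRNAs have no row. Of 6 muscle names 2 had a row, with 0.371 to 3.60 CPM summed per library, of 6 blood names 2, with 0.00 to 2.40 CPM, and of 5 fibroblast and smooth muscle names 1, with 0.00 to 1.53 CPM. Endothelial miR-126 had 6.31 to 11.1 CPM. Of 7 epithelial names only miR-375 had a row, with 1.67 to 4.58 CPM, and of 5 names of differentiated kidney tubule 4 had, with 17.1 to 29.4 CPM.

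The neuronal list was the exception among these lists, mainly through miR-7 and miR-9. Of 7 names 5 had a row, and together they reached 160 to 261 CPM, or 2.00 ± 0.221% of the microRNA counts. hsa-miR-7-5p led them with 98.8 CPM, and hsa-miR-9-5p followed with 79.8 CPM, or 0.727 ± 0.0589% of the class. By contrast hsa-miR-128-3p had 19.5 CPM and hsa-miR-129-5p 1.65 CPM, and miR-137 and miR-219a had no row. Other arms of these names, hsa-miR-9-3p, hsa-miR-7-1-3p and hsa-miR-129-2-3p, had 11.4, 3.47 and 0.774 CPM. Of the 215.7 CPM that the list reached on average, the rows given left little for miR-124, the remaining name with a row.

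Of the remaining polymerase III transcripts, the 4 Y RNAs stood close together. RNY4 had 679, 828, 882 and 742 CPM in libraries 1 to 4 (783 ± 90.3), RNY1 728 ± 71.3, RNY3 688 ± 55.4 and RNY5 599 ± 61.4 CPM. Per 100 nt the 4 lay between 644 for RNY1 and 815 for RNY4, and neighbours in that order overlapped between libraries. The 400 distinct rows named only Y_RNA with a number held 77.1 ± 0.589% of the summed Y RNA counts, and the largest of them, Y_RNA.136, had 766 ± 62.0 CPM, within the range of the 4 genes.

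RN7SL1, a 7SL gene, had 2595, 1859, 1902 and 1823 CPM (2045 ± 368), and RN7SL2 had 1725, 1316, 1396 and 1337 CPM (1443 ± 191). Library 1 was the highest for both, and RN7SL1 was above RN7SL2 in every library. RN7SK, which holds back the elongation factor P-TEFb, had 549.9, 486.4, 535.0 and 494.6 CPM (517 ± 30.8). Per length RN7SL1 was 4.38 ± 0.586 times RN7SK.

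RPPH1, of RNase P, which trims the 5′ end of tRNAs, had 162 ± 8.10 CPM and RMRP 101 ± 3.44 CPM, and RPPH1 was 1.27 ± 0.0884 times RMRP per length. Vault RNAs, parts of the vault ribonucleoprotein, differed among themselves: VTRNA1-1 had 103.3 ± 15.4, VTRNA1-2 98.8 ± 8.95 and VTRNA1-3 34.2 ± 8.34 CPM. Per length VTRNA1-1 was 2.80 ± 0.608 times VTRNA1-3, and VTRNA1-2 was 1.07 ± 0.0892 times VTRNA1-1. SNAR-A3, whose counts 10 rows share, had 208.2, 221.6, 241 and 184 CPM (213.7 ± 23.99). BCYRN1, a neuronal cytoplasmic RNA, had 9.40 ± 1.04 CPM and the telomerase RNA TERC 4.89 ± 1.16 CPM.

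Spread between libraries was larger than counting allows and differed between classes. Over 858 rows with a mean of at least 100 counts, the median CV of the CPM was 14.7%, where counting alone would give 4.67%. MicroRNAs had the widest spread of the classes with over 10 such rows, with a median CV of 27.9% over 61 rows. Transfer RNAs had 13.1% over 176 whole rows, Y RNAs 13.1% over 157, ribosomal RNAs 12.6% over 74, C/D box snoRNAs 14.7% over 131, snRNAs 15.1% over 151 and H/ACA box snoRNAs 16.9% over 51. edgeR's common biological coefficient of variation, which takes counting noise out, was 15.5% over all these rows, 22.6% in microRNAs and 9.14% in Y RNAs.

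The microRNAs moved together. Of the 61 rows, 55 were lowest in library 1 and 51 highest in library 4, and as a class they held 0.727%, 0.991%, 1.23% and 1.45% of the counts in libraries 1 to 4. Once each row was taken as a share of the microRNA counts the median CV was 11.5%, beside 10.4% over all rows treated so. Without library 1 the median CV of the microRNAs on the CPM scale was 19%. The part of library depth in this was not tested.

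Library 1 stood apart in several other classes at once. Of rows with at least 100 counts on average, it was the lowest library for 466 of 858 in all, and for 108 of 151 snRNAs, 98 of 131 C/D box and 40 of 51 H/ACA box snoRNAs. It was the highest library for 14 of 17 7SL rows. For whole tRNAs it was the highest for 66 of 176 rows and the lowest for 48. Its share of ribosomal RNA, 52.2%, was the highest of the 4. Shares sum to 100%, so these values are not independent of each other, and their part in the microRNA level was not tested. The single rows with the widest spread were, per class, SNAR-D with a CV of 46.1%, hsa-miR-941 with 45.3%, tRNA-Ala-TGC-6 with 38.9%, RNU2-52P with 38.7% and SNORD111B with 34.9%, and those with the narrowest RNU1-63P with 1.11%, Y_RNA.665 with 1.47% and SNORD110 with 1.79%.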

How the data were processed

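The raw file deposited by the authors holds whole-number counts per small RNA row. A second deposited file holds a normalized signal, the raw count over a constant of each library (1 for tRNA rows, another for the rest, read from the ratio of both files), and served as an alternative scale. Per the submitters' processing notes, hg38 was the genome build. The aligner, counter and annotation are not given in the sources consulted. Members, classes and lists were chosen with earlier results of these data known, and the 4 mimic columns were not analysed here.
Classes follow row-name prefixes, widened by other names of the same RNA (Y_RNA, U2, 5S_rRNA, RNVU1). CPM divides by the total over distinct rows. Rows are named by rule: the 5 highest per class (10 for whole tRNAs and microRNAs), the highest and lowest CV at a mean count of at least 100, and preset lists. Rows named after their values were seen are gene copies, snoRNAs of host genes or with printed sequences, leading rows of isotypes, tRNA-Lys-TTT-6 and single microRNAs outside the lists. Lengths, tRNA coordinates and microRNA sequences are RefSeq's (GRCh38.p14), snoRNA sequences and hosts GENCODE's (release 29). Dispersion was estimated with edgeR 4.0.16 in R 4.3.3 (TMM, intercept only), tested on simulated data, and DESeq2 1.42.0 gave size factors. Other values came from pandas 2.3.3, numpy 2.4.6 and scipy 1.17.1 in Python 3.11.15, and figures from matplotlib 3.10.9. Alternatives changed the treatment of shared reads, class names, filters, scaling and libraries.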

Additional observations from a re-analysis of the deposited data

Results flagged for a closer look

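In 14 of 241 values looked at, 1 library lay apart from the other 3 by more than Dixon's 95% limit for 4 samples. Chance flags about 1 in 20 groups, so the number is near that, but the values are not independent and 10 of the 14 lay in library 1. The part of chance in that was not tested.
Among levels in library 1, RN7SL1 was at 2595 CPM against 1823 to 1902 in the others and tRNA-Ala-TGC-6 at 30.8 CPM against 14.2 to 16.8. RNU5D-1 was at 368 CPM against 641 to 697, RNU7-1 at 45.5 CPM against 87.1 or more, and SNORA73A at 67.8 CPM against 88.1 to 90.5. In library 2, RN7SL128P was at 14.5 CPM against 28.6 to 31.2. In library 3, RN7SKP187 was at 58.3 CPM against 46.4 to 48.4 and RNU5A-1 at 72.1 CPM against 57.3 to 59.6.
Among shares in library 1, aspartate held 14.1% of the whole tRNA counts against 19.8% to 20.4% and lysine 14.5% against 10.2% to 10.4%. The anticodon CTG held 55.6% of glutamine against 61.4% to 61.9%, and U5 held 1.57% of the snRNA counts, with the largest row per family, against 2.46% to 2.63%. The ratio of miR-19b-3p to miR-17-5p was 5.8 against 8.16 to 8.61. In library 4 the ratio of RNU1-1 to RNU4-2 per length was 25.2 against 19.5 to 20.1. No class share lay apart in this way.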

How the results depend on the processing

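Class shares depended on the treatment of shared reads and, for Y RNA, on the class names. With every row counted they were 56.5% (rRNA), 21.5% (snRNA), 16.3% (tRNA), 1.29% (C/D), 1.44% (Y RNA) and 0.719% (microRNA). With near-equal rows taken once they were 32.2%, 12.4%, 42.7%, 2.73%, 2.57% and 1.92%, and with the largest row per family, leaving unassigned Y_RNA copies out, 27.9%, 5.62%, 54.3%, 3.37%, 0.615% and 2.42%. By the bare prefixes rRNA was 46.5%, snRNA 14% and Y RNA 0.503%. Without rRNA rows in the total, snRNA was 35.3%, tRNA 48.4%, C/D 3.63%, Y RNA 4.31% and microRNA 2.14%. These moves follow from which rows enter. Rows that hold 50% of the counts numbered 24 with every row counted, rows detected at equal depth 1064 instead of 2334 with a mean count of at least 50, and the median CV of microRNAs was 11.5% within the class, where that of 5 other classes also moved. Without library 1 the median CV was 9.84% in snRNA, 6.46% in 7SL RNA, 7.98% in scaRNA and 23.6% in snaR, and without library 2 9.48% in 7SL RNA. It was 29.7% in 7SK RNA at a mean count of at least 20 and 7.31% in Y RNA at 1000. Leaving out each library in turn gave rRNA 47.8% to 49.7%, tRNA 24.2% to 25.5%, microRNA 0.983% to 1.23%, Asp-GTC 18% to 20.1% of whole tRNA and the miR-17-92 cluster 52.1% to 54.1% of microRNA counts. The levels of 83 leading rows changed by a factor of 0.977 to 1.013 with DESeq2 size factors, 0.981 to 1.013 with TMM, 0.955 to 1.07 with the authors' values and 1.744 to 1.762 with near-equal rows taken once, where only the total shrank. Levels within a class change the unit and are given as shares of the class. No paired analysis was possible because only 1 group was used and no result comes from a test. Library 3, the shallowest, limits rows under about 1.14 CPM, and n = 4 limits every order.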
